A study of Mus musculus with 36 samples.

Results

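The response of liver chromatin to phenobarbital (PB) was taken from the 9 C57BL/6 mice with DNase-seq data, 5 given PB and 4 given vehicle, of the 36 DNase-seq and RNA-seq samples of the series. The regions described are all 98170 DNase I hypersensitive sites (DHSs) of the deposited table, of which 323 gained and 37 lost accessibility under PB by the rule given below. The mice were males aged 9 to 11 weeks at the start. The vehicle group drank untreated water and the PB group drank water with 0.05% (wt/vol) PB, each for 91 d. No transgene, deletion or further agent was carried by either group, and each sample was the liver of a different animal. The remaining 9 DNase-seq mice were B6C3F1 hybrids on the same treatments, aged 4 to 5 weeks at the start and so younger than the C57BL/6 mice, and they are used here as mice that played no part in choosing the C57BL/6 regions. RNA-seq of C57BL/6 liver (9 samples) is used as a second readout.

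DNase I cuts DNA that is not wrapped tightly in nucleosomes, so a short stretch with many cuts marks a promoter, an enhancer or an insulator that proteins occupy. PB is a sedative that, in hepatocytes, leads to activation of the constitutive androstane receptor (CAR), a nuclear receptor that enters the nucleus and binds, paired with the retinoid X receptor, at direct repeats of a hexamer related to AGGTCA. The best known targets are the cytochrome P450 genes of the Cyp2b and Cyp2c families, which oxidize drugs and other foreign compounds. A repeat whose hexamers lie 4 bases apart is called DR4. The livers were measured whole, so a DHS that loses signal through fewer cells of a type cannot be told apart from one that loses accessibility within each cell.

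The sequences below, read from the GRCm38 (mm10) reference genome on the plus strand, are the 300 bases centred on DHSs on which the results turn. A DHS narrower than 300 bp is shown with flanking bases. The first 5 gained accessibility: the largest gain (Micall2), a DR4 in an intron of the endothelial receptor gene Tie1, a DR4 inside a cluster of gained DHSs at Adamtsl1, and AP-1 matches in 2 further clusters (Pepd and Cyp2c53-ps). The sixth, 742 kb from Lrrn3, holds the most DR4 matches of any gained DHS together with 1 near Gm5088. In both, most of these matches overlap on a run of a 5-base repeat. The last 2 had the largest losses. Each is named by its nearest transcription start site (TSS), and capitals mark DR4 or AP-1 matches.
Micall2 (chr5:139707195-139707494): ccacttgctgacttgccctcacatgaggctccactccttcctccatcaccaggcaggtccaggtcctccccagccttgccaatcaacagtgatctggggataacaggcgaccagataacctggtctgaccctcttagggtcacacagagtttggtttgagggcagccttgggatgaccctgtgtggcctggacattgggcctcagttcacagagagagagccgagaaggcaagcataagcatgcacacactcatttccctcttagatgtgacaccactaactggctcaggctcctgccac
Tie1 (chr4:118476798-118477097): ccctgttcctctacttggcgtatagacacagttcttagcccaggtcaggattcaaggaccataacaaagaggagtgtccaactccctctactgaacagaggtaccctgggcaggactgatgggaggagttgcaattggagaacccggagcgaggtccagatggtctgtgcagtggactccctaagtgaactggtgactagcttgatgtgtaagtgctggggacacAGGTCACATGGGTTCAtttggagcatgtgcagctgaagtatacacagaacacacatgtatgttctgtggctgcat
Adamtsl1 (chr4:86066296-86066595): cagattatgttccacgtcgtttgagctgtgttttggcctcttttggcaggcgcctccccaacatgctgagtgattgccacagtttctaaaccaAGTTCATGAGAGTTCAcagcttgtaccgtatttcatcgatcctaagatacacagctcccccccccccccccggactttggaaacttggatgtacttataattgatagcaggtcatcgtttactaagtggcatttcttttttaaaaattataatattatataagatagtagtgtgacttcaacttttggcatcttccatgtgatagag
Pepd (chr7:34981778-34982077): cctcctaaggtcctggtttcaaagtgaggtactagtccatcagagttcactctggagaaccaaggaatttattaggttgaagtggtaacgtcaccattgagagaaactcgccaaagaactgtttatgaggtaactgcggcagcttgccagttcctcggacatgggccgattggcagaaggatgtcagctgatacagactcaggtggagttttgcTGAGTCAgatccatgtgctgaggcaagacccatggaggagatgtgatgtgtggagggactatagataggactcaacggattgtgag
Cyp2c53-ps (chr19:39178006-39178305): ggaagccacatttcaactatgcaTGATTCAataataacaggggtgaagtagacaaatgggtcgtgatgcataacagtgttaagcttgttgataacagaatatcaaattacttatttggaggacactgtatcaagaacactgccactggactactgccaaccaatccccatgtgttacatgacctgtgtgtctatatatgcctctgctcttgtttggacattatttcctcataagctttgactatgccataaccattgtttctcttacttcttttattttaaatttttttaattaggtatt
Lrrn3 (chr12:42228287-42228586): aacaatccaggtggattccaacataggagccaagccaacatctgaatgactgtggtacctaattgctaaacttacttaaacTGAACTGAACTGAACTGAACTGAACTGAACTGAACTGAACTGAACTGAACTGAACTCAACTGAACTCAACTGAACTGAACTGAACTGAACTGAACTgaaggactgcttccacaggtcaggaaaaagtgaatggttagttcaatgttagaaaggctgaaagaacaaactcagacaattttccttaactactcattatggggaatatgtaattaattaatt
Zbtb18 (chr1:177364401-177364700): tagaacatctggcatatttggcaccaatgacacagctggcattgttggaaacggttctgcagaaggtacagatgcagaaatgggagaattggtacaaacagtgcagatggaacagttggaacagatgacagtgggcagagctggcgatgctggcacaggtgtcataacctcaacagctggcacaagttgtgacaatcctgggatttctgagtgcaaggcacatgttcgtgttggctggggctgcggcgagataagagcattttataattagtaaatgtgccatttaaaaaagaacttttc
Mir669h (chr2:10675784-10676083): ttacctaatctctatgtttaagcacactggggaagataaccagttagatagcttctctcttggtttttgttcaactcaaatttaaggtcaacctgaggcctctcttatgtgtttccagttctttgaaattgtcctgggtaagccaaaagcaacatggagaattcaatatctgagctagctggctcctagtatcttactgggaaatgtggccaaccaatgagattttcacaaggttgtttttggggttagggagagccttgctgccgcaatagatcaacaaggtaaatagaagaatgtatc

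The DR4 sites of the gained DHSs are also shown alone, 1 for each of 15 DHSs, read 5′ to 3′ on the strand of the match with the hexamers in capitals and the 4 spacer bases in lower case. A sixteenth gained DHS with a DR4 is counted but not shown. The match near Kcnj3 starts just before the edge of its DHS. All positions are in GRCm38.
4930553C11Rik (chr11:39144981-39144996, plus strand): AGTTCAgtacAGTTCA
Gm16497 (chr12:14209986-14210001, minus strand): AGTTCAgttgAGTTCA
Lrrn3 (chr12:42228368-42228383, minus strand): AGTTCAgttcAGTTCA
Gm5088 (chr14:89668854-89668869, minus strand): AGTTCAgttcAGTTCA
Rnps1 (chr17:24418789-24418804, plus strand): AGTTCAgcaaAGTTCA
4930542M03Rik (chr17:45940359-45940374, plus strand): GGTTCAagaaGGTTCA
Ehmt1 (chr2:24880783-24880798, plus strand): AGTTCAaggaAGTTCA
Kcnj3 (chr2:55668534-55668549, plus strand): AGTTCAgttgAGTTCA
Adamtsl1 (chr4:86066389-86066404, plus strand): AGTTCAtgagAGTTCA
Tie1 (chr4:118477023-118477038, plus strand): AGGTCAcatgGGTTCA
C030018K13Rik (chr5:64483175-64483190, minus strand): GGGTCAaataGGTTCA
Ccdc83 (chr7:90277871-90277886, minus strand): AGGTCAgtgaAGTTCA
Mir3106 (chr8:16510411-16510426, plus strand): AGGTCAcccaAGTTCA
Unc5d (chr8:29806065-29806080, minus strand): AGTTCAgtgcAGGTCA
Timm8a1 (chrX:134529104-134529119, minus strand): AGTTCAgttgAGTTCA

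Mapped reads inside the DHSs numbered 21.4 to 58.1 M in the vehicle mice (median 41.4 M) and 19.4 to 44.6 M in the PB mice (median 25.1 M), so the PB libraries were the shallower group. The deposited values are read counts that the authors scaled to a common level, called normalized counts here. Log2 fold changes (log2 FC) were fitted with limma on log2(normalized count + 1), which understates the change of the lowest DHSs. The value after ± is the standard error, and FDR is limma's adjusted p over all 98170 DHSs. A DHS was called gained or lost at a log2 FC of at least 0.58 in size with an FDR of at most 0.01. The gained DHSs were 0.329% of those tested and the lost DHSs 0.0377%. All 5 PB mice lay above all 4 vehicle mice at 322 of the 323 gained DHSs, an order found at 1.74% of all DHSs, and below them at 37 of 37 lost DHSs, an order found at 1.40% of all. These orders come largely from the choice of the DHSs on the same mice and are given as a description. The RNA samples carried the hepatocyte markers at a summed 72151 to 89325 CPM (reads scaled to an equal library total) in vehicle and 67493 to 77292 in PB livers. The stellate cell markers summed to 430 to 529 CPM in vehicle and 364 to 434 in PB livers, the endothelial markers to 525 to 588 and 557 to 637, the Kupffer cell markers to 299 to 454 and 276 to 512, and the cholangiocyte markers to 40.5 to 49.1 and 39.3 to 53.9, where Cftr and Sctr had no row in the RNA table. The lymphocyte markers summed to 19.8 to 27.1 and 18.1 to 34.5, with Cd3e, Cd8a, Cd79a, Nkg7 and Klrb1c without a row, and the proliferation markers to 30.6 to 38.8 and 35.1 to 46.9. The part of cell composition in the DHS changes was not tested.

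Gained DHSs started low and rose to the level of an ordinary DHS, whereas lost DHSs started above it and came down to it. The median gained DHS went from 41.4 normalized counts in vehicle to 113 in PB livers, and the median lost DHS from 196 to 106, against 112 and 114 for all DHSs. In single mice the median over the gained DHSs was 39.5 to 43.3 in the 4 vehicle livers and 98.4, 125, 104, 100 and 118 in the 5 PB livers. The median over the lost DHSs was 166 to 209 in vehicle and 85.7, 119, 96.5, 98.2 and 114 in PB livers, so the groups did not overlap for either set, while the median over all DHSs stayed at 110 to 116 in every mouse. These levels belong to the contrast that chose the DHSs and are given as a description. The levels in the B6C3F1 vehicle mice, which the choice did not use, had the same order: a median of 33.4 at the gained, 135 at the lost and 116 at all DHSs. Per 100 bp of width the gained DHSs went from 14.0 to 37.2 normalized counts and the lost from 50.8 to 26.9, where all DHSs had 35.1 and 36.0.

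**Figure D1:**
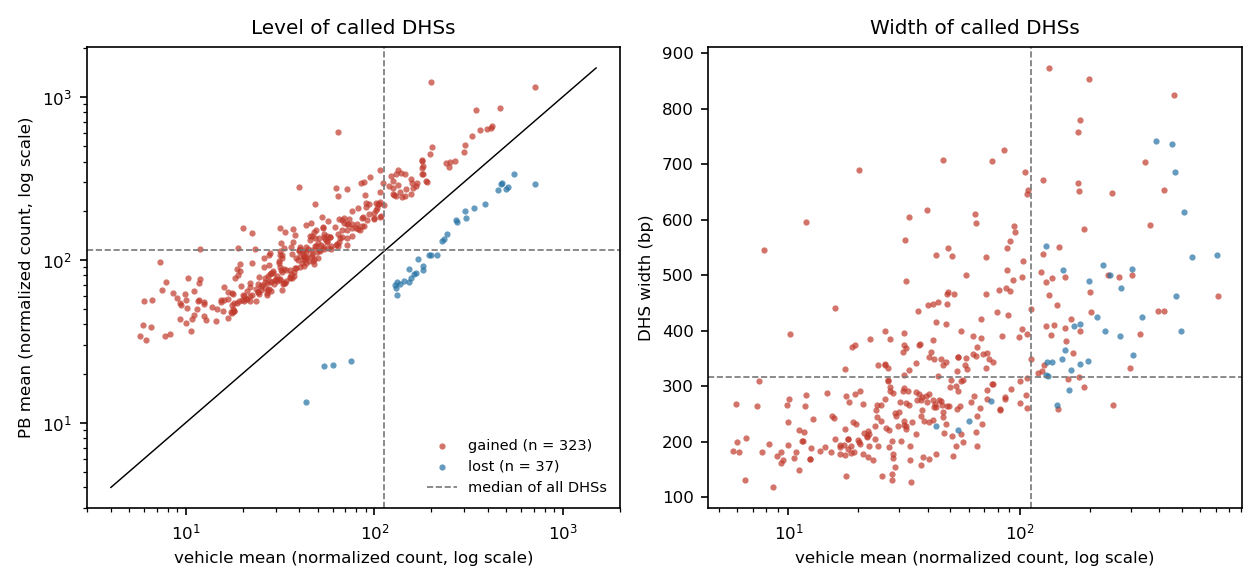
Left, mean normalized count in vehicle (x) and PB livers (y), both on log axes, of the 323 gained (red) and 37 lost (blue) DHSs, with a black line at equal levels. Right, vehicle level against DHS width in bp. Dashed lines are the medians of all 98170 DHSs (112 in vehicle, 114 in PB, 316 bp). Gained DHSs crowd at low vehicle levels and lost DHSs at higher levels and larger widths.

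Of the gained DHSs, 276 (85.4%) lay below the median vehicle level of all DHSs, against 4 of the lost (10.8%). After PB, 166 of the gained DHSs (51.4%) were still below the median PB level. They took 0.0833 to 0.0878% of all DHS signal in the vehicle mice and 0.178 to 0.227% in the PB mice. The lost DHSs took 0.0338 to 0.0385% and then 0.0183 to 0.0220%. The share of DHSs called gained fell steadily with the starting level. It was 11.7% of the 557 DHSs under 20 normalized counts, 0.644% from 20 to 50, 0.279% from 50 to 100, 0.224% from 100 to 200, 0.0758% from 200 to 500 and 0.0105% from 500 to 1000, and none of the 4747 DHSs at 1000 or more was called. With the DHSs binned by their B6C3F1 vehicle level instead, 3.98% of the 2288 DHSs under 20 were gained in C57BL/6, and again none at 1000 or more. The lost DHSs lay in the middle of the range, with 16 at a vehicle level of 100 to 200, 14 at 200 to 500 and 3 at 500 to 1000. The median standard error of the log2 FC was 0.077 in the highest of these bins and 0.38 in the lowest, so the values were most precise where no DHS was called. A DHS enters the consensus table only with a peak in at least 3 samples, so a DHS nearly closed in vehicle livers is listed mainly where PB or the other strain opened it. The part of this rule in the share of the lowest bin was not tested.

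**Figure D2:**
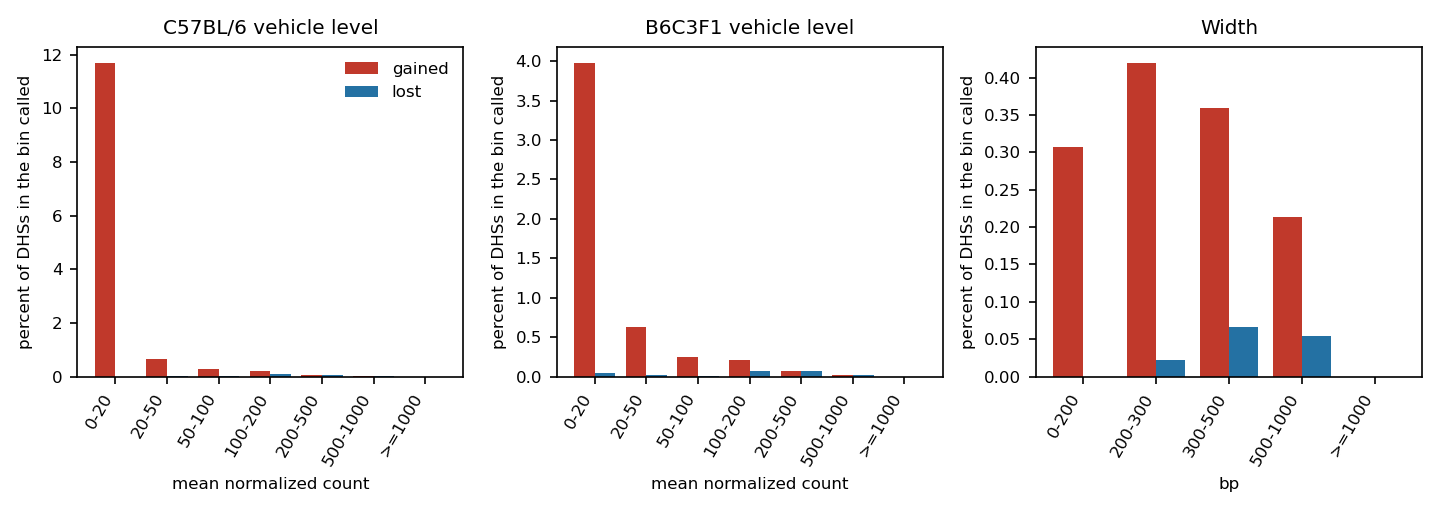
Percent of DHSs called gained (red) or lost (blue) in bins of the C57BL/6 vehicle level, the B6C3F1 vehicle level (both normalized counts) and the width (bp). The y axes differ between panels. The gained share falls from 11.7% to 0 over the C57BL/6 bins and from 3.98% to 0 over the B6C3F1 bins.

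The lost DHSs were wider than DHSs in general, and the gained DHSs were near the general width. The median width was 291 bp (quartiles 224 to 402) for gained, 400 bp (340 to 509) for lost and 316 bp (221 to 477) for all DHSs. The gained median lay above that of all DHSs instead of below it with all 4 groups of mice in the fit (350 bp) and without the PB mouse whose number ends in 5 (317 bp). Of the lost DHSs, 31 of 37 (83.8%) exceeded the median width of all, against 139 of the gained (43.0%). None of the 2128 DHSs of 1000 bp or more was called. Width and level rise together, and at a fixed starting level the gained share rose with width. Among DHSs at 20 to 50 normalized counts in vehicle, 0.186% of those under 200 bp were gained (21 DHSs) and 0.831% at 200 to 300 bp (65). The share was 4.00% at 300 to 500 bp (36) and 15.6% (7 of 45) at 500 bp or more. Most gained DHSs at this level were thus still under 300 bp. At 100 to 200 normalized counts the same widths gave 0%, 0.0964%, 0.243% and 0.518%. The width of a consensus DHS is set by merged peaks of both treatments, so a DHS widened by PB counts here with its PB width. The widest gained DHS was 873 bp and intronic. Its nearest TSS, 124 kb away, was that of Mms22l, a DNA replication and repair gene, and the intron need not be one of Mms22l. It had 143, 111, 137 and 144 normalized counts in vehicle and 338, 409, 350, 324 and 344 in PB livers. The groups did not overlap (log2 FC 1.40 ± 0.12, limma FDR 2.52e-07). The gained DHS with the highest starting level lay 5.86 kb upstream of 1700052I22Rik, at 682 to 749 in vehicle and 1014 to 1305 in PB livers (log2 FC 0.67 ± 0.08, limma FDR 2.93e-05). The widest lost DHS was 742 bp, near Dcdc2c.

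The gains were larger than the losses. The median log2 FC was 1.35 (quartiles 1.11 to 1.70) for the gained and -0.889 (-1.02 to -0.762) for the lost DHSs, 268 gained (83.0%) and 11 lost (29.7%) DHSs changed at least 2-fold, and 48 gained but 0 lost DHSs changed at least 4-fold. The largest gain was in an intron of Micall2, a gene for a protein of vesicle trafficking at cell junctions, 29.0 kb downstream of its TSS (chr5:139707213-139707476, sequence above). Its normalized counts were 2.71, 7.83, 10.2 and 8.56 in vehicle and 86.8, 138, 99.4, 78.6 and 79.1 in PB livers. Every PB liver was thus several times above every vehicle liver, with a 12.4-fold rise (log2 FC 3.63 ± 0.30, limma FDR 9.38e-08) in C57BL/6 and a log2 FC of 3.16 in B6C3F1. A DHS 48.6 kb upstream of Prok2, which encodes a secreted prokineticin, had 7.03, 7.12, 16.1 and 1.22 in vehicle and 68.8, 98.5, 59.7, 65.8 and 71.3 in PB livers (log2 FC 3.37 ± 0.43, limma FDR 3.56e-04). The lowest of those values is that of 1 read in its library. A DHS 760 kb from the nearest TSS, that of the adhesion receptor gene Adgrl3, had 14.6, 9.25, 12.7 and 11.0 in vehicle and 120, 121, 89.6, 123 and 134 in PB livers (log2 FC 3.20 ± 0.22, limma FDR 2.97e-09). The PB values of this far DHS lay within a narrow range, and its B6C3F1 log2 FC was 2.64. Intronic DHSs at 31.4 kb from the TSS of Susd2 and 69.5 kb from that of Pepd, the gene of the dipeptidase prolidase, each had a log2 FC of 3.03, from means of 6.59 and 5.97 to 56.8 and 55.6.

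The called losses were smaller, and most began from clearly open DHSs. The largest was 77.8 kb upstream of Zbtb18, a gene for a zinc finger repressor, with 48.2, 44.8, 39.1 and 41.6 in vehicle and 6.35 to 20.6 over the 5 PB livers (log2 FC -1.72 ± 0.31, limma FDR 0.00392). A DHS 158 kb from Mir669h had 70.9, 64.8, 71.3 and 92.9 against 11.6, 21.5, 33.9, 28.5 and 23.3 (log2 FC -1.68 ± 0.26, limma FDR 6.80e-04). In both, the highest PB liver was below the lowest vehicle liver. The largest loss in normalized counts was 17.4 kb downstream of the TSS of Tmem50a, at 651, 684, 759 and 748 in vehicle and 205, 289, 245, 416 and 301 in PB livers (log2 FC -1.32 ± 0.15, limma FDR 1.76e-04). Only 2 lost DHSs were at promoters. At Mycn, which encodes the transcription factor N-Myc, the DHS 124 bp upstream of the TSS had 129, 142, 155 and 201 in vehicle and 85.7, 69.2, 50.0, 89.4 and 89.4 in PB livers (log2 FC -1.03 ± 0.19, limma FDR 0.00339). Its RNA was 0.947 CPM in vehicle and 0.321 in PB livers, a log2 FC of -1.26 that did not pass the RNA test (limma FDR 0.0706). At Htra1, which encodes a secreted serine protease, the DHS had 116 to 139 in vehicle and 54.4 to 83.6 in PB livers (log2 FC -0.96 ± 0.17, limma FDR 0.00360), and it was the 1 lost DHS also called lost in B6C3F1 (log2 FC -1.22, limma FDR 0.00940). At neither promoter did the groups overlap.

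**Figure D3:**
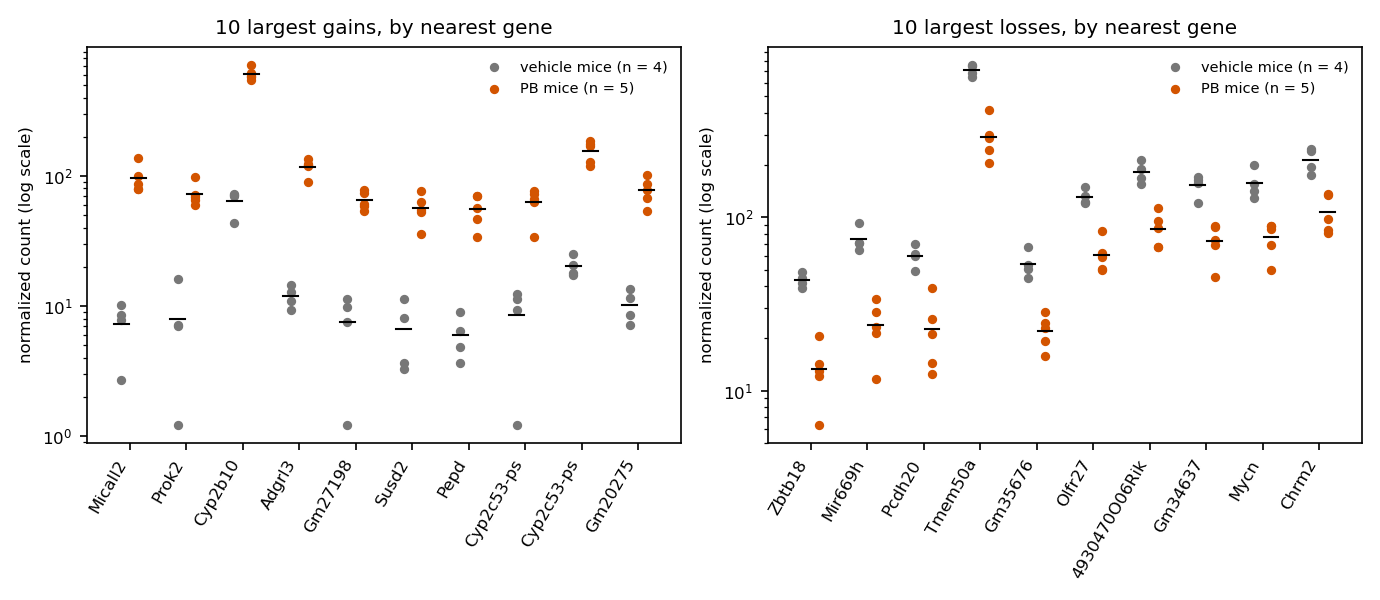
Normalized counts (log axis) of single mice at the 10 largest gains and the 10 largest losses, with bars at the group means. At each of the 20 DHSs the PB and vehicle mice do not overlap, which was part of how these DHSs were chosen.

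Many gained DHSs lay together in the genome, and most lost DHSs lay alone. Called DHSs were linked where the centres of neighbours were at most 50 kb apart, and 3 or more linked DHSs were taken as a cluster. There were 23 clusters on 12 chromosomes with 107 gained DHSs (33.1% of all gained) and 0 lost. Of the clusters, 12 held 3 DHSs, 6 held 4, 3 held 6, and single ones held 8 and 21. They spanned 2.60 to 163 kb (median 21.6 kb). A further 31 pairs comprised 28 of 2 gained, 3 of 2 lost and 0 of 1 each, and the lost pairs lay near Chrm2, Fancl and 5430427M07Rik. The other 160 gained and 31 lost DHSs had no called neighbour. Another called DHS lay within 50 kb of 46.9% of called DHSs (95% Wilson interval 41.8 to 52.1%), 50.5% of gained and 16.2% of lost ones, whereas 1.82% of all DHSs had a called DHS that near. At 20 kb these shares were 43.6% of called against 0.883% of all, and at 250 kb 50.6% against 6.77%, so most called neighbours were already within 20 kb. The Wilson interval takes called DHSs as independent, which neighbours are not, so it can be too narrow. It does not cover differences between mice. Of the gained DHSs 0 had a lost DHS within 50 kb, and so few of all DHSs did (0.204%) that nothing can be read from that count.

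The largest cluster, chr19:39169858-39333140, covered 163 kb and held 21 gained DHSs of 29, with log2 FC of 0.890 to 2.97 and a median of 1.82. It lies over Cyp2c29, Cyp2c66 and the pseudogene Cyp2c53-ps, and the other 8 DHSs in it all had a log2 FC above 0 without being called. Of the 21, 17 were also called gained in B6C3F1. Its narrowest and strongest DHS, 118 bp in an intron of Cyp2c53-ps, had 11.4, 9.25, 12.3 and 1.22 in vehicle and 62.5, 66.8, 33.9, 72.7 and 76.5 in PB livers (log2 FC 2.97 ± 0.46, limma FDR 0.00309). Its widest, 824 bp and 16.4 kb upstream of the same TSS, started high, at 355 to 578, and reached 743 to 1007 (log2 FC 0.89 ± 0.12, limma FDR 4.81e-04). Closed and open DHSs thus both gained within 1 cluster. Cyp2c genes are close copies of one another, and reads that map to several of them are uncertain although the authors dropped reads of low mapping quality. The cluster of Cyp2b10 on chromosome 7 held 6 gained DHSs of 10 in 36.1 kb, with log2 FC from 0.903 to 3.24.

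Clusters also lay at genes outside the P450 families. Their median log2 FC was 1.29 at Abcc4, 1.29 at Adamtsl1, 1.42 at Nebl and 0.905 at the Gstm genes. These medians were under the 1.82 of the Cyp2c cluster, but those of the clusters in Pepd and near Gm20275 were above it. The median of the Cyp2b10 cluster was also under 1.82, near that of Nebl. At Abcc4, which encodes a pump that exports drugs and conjugates from the cell, 8 of 16 DHSs in 72.9 kb (chr14:118674191-118747055) were gained, with log2 FC of 0.646 to 3.20. The promoter DHS of Abcc4, 758 bp wide, had 194, 169, 192 and 158 in vehicle and 339, 463, 376, 415 and 452 in PB livers (log2 FC 1.19 ± 0.12, limma FDR 1.56e-06). Abcc4 RNA rose from 4.16 CPM (2.93 to 4.99 over mice) to 36.9 CPM (32.8 to 41.4), a log2 FC of 3.14. All 8 DHSs were above 0 in B6C3F1 and 1 was called there.

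At Adamtsl1, whose product is a secreted protein of the extracellular matrix, all 6 DHSs in 58.2 kb (chr4:86053627-86111809) were gained, from the promoter to intronic sites up to 57.5 kb inside the gene. The promoter DHS had 69.3, 66.9, 77.3 and 89.3 in vehicle and 167, 224, 173, 197 and 240 in PB livers (log2 FC 1.39 ± 0.15, limma FDR 7.48e-06). Of these 6, 5 were also called in B6C3F1, and Adamtsl1 RNA rose from 1.83 to 6.65 CPM (log2 FC 1.78). At Nebl, which encodes the actin-binding protein nebulette, all 4 DHSs in 22.3 kb were gained. The DHS 85 bp upstream of the TSS had 34.1, 35.6, 42.5 and 33.0 in vehicle and 105, 125, 92.5, 110 and 166 in PB livers (log2 FC 1.67 ± 0.19, limma FDR 1.04e-05), and RNA rose from 0.556 to 11.5 CPM (log2 FC 4.09). In these genes the promoter and the intronic sites thus rose together.

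Other clusters lay at predicted or lowly expressed genes. On chromosome 9, 4 of 5 DHSs in 18.2 kb near Gm20275 and Gm7616 were gained with log2 FC of 1.46 to 2.82, while their B6C3F1 log2 FC ranged from -0.0916 to 1.97 with 0 called. The DHS 2 bp from the Gm20275 TSS had 15.7, 6.41, 8.92 and 6.11 in vehicle and 42.3, 53.1, 39.1, 59.9 and 76.5 in PB livers (log2 FC 2.47 ± 0.31, limma FDR 3.63e-05). The difference between the strains did not pass the test at any of these DHSs. Within 100 kb of this cluster the RNA of Myo9a, an unconventional myosin gene, rose from 28.1 to 54.7 CPM (log2 FC 0.96). The 3 gained DHSs of a cluster in Pepd, at mean levels of 5.97 to 48.1 in vehicle, accompanied RNA of 42.3 CPM in vehicle and 59.9 CPM in PB livers, a log2 FC of 0.50 (limma FDR 3.73e-04) under the size required for a call. Clusters of 3 lay at Pnliprp1, a gene related to pancreatic lipase, whose RNA was 0.266 and 3.00 CPM, and at Smpd3, the gene of a neutral sphingomyelinase, at 2.94 and 15.0 CPM. Clusters were also at the Gstm genes, whose glutathione S-transferases conjugate drugs (4 of 22 DHSs gained), and at Por, the reductase that feeds electrons to P450 enzymes (3 of 14). A gene with a called change in RNA was within 100 kb of 10 of the 23 clusters, and of 62 of the 107 clustered DHSs (57.9%), 101 of the gained DHSs (31.3%) and 0 of the lost DHSs, against 2.11% of all DHSs.

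**Figure D4:**
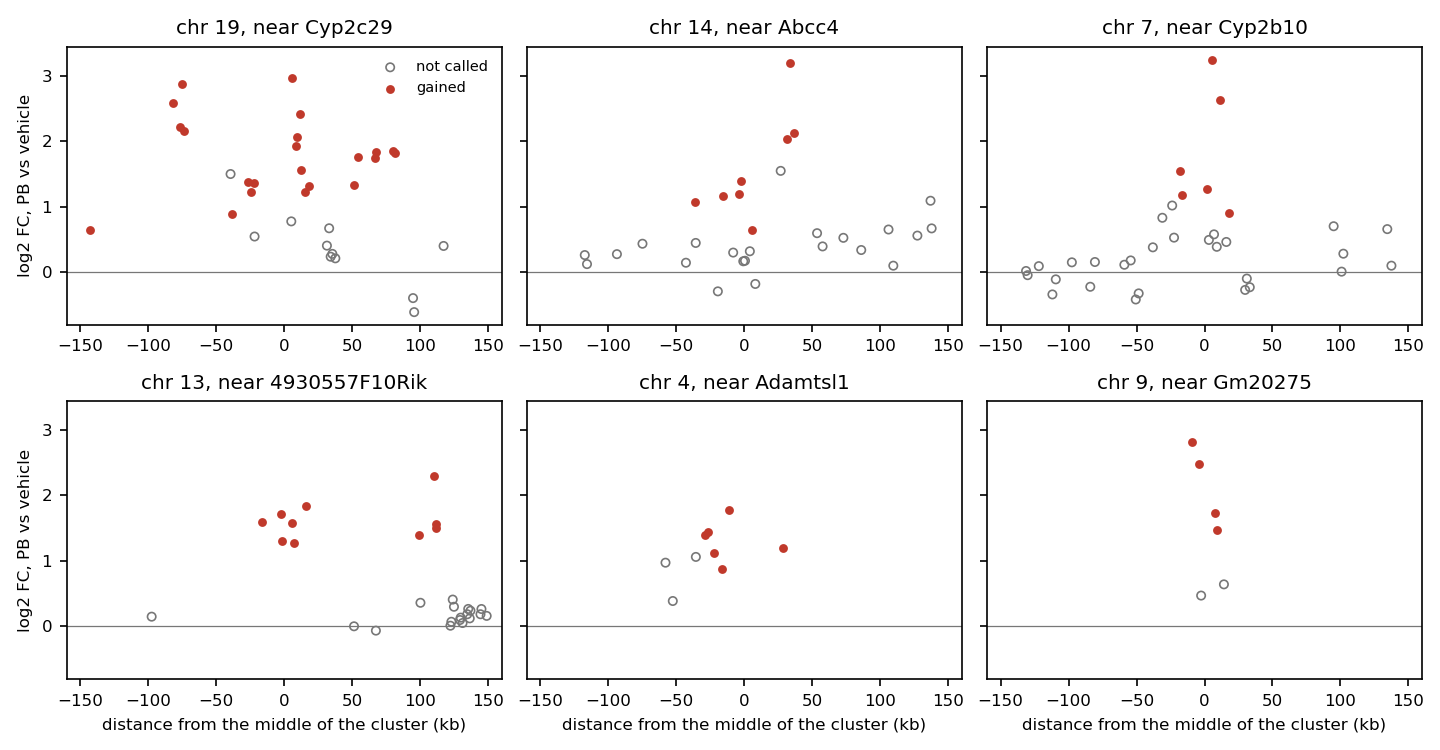
Log2 FC of each DHS (y) by its distance in kb from the middle of the cluster (x) at the 6 clusters with most gained DHSs. Filled red points are gained and open points were not called. In the Adamtsl1 cluster and in the chromosome 13 cluster all 6 DHSs are gained, and in the Cyp2c cluster the 8 DHSs that were not called are all above 0.

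Of the 10 clusters with most gained DHSs, 4 fell in 1 stretch of chromosome 13 (chr13:21240870-23413399), an interval picked out after their positions were seen. It held 87 DHSs, of which 19 (21.8%) were gained and 0 lost, and 48 of the other 68 were above 0 (median log2 FC 0.150). One cluster, near 4930557F10Rik, had all 6 of its DHSs gained with log2 FC of 1.27 to 1.84. The interval holds 89 annotated genes, of which 36 are Vmn1r genes, which encode pheromone receptors of the vomeronasal organ. Only 10 of the 89 were measured in the RNA data, and 0 passed (smallest limma FDR 0.376). Vmn1r genes are a family of near copies, so the placement of reads between them is uncertain. By chromosome the gained share was highest on 19 (0.982% of its DHSs, 34 gained), 7 (0.541%) and 13 (0.534%) and, leaving out Y with 0 gained of 28 DHSs, lowest on X (0.0539%, 1 gained), 15 (0.0721%) and 11 (0.105%). Chromosome 12 had most lost DHSs (6, 0.146%).

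DHSs that were not called moved in the same direction as a called neighbour. Within 5 kb of a gained DHS, 179 uncalled DHSs had a median log2 FC of 0.344 and 86.6% were above 0, against 49.5% of all DHSs. The median was 0.110 at 5 to 20 kb, 0.0715 at 20 to 50 kb, 0.0426 at 50 to 100 kb and -0.00172 at 100 to 250 kb. Around lost DHSs the sign was opposite and the range longer. The 22 uncalled DHSs within 5 kb had a median of -0.324 with 0% above 0, and the median was -0.170 at 5 to 20 kb, -0.122 at 20 to 50 kb and -0.0785 at 50 to 100 kb. The same DHSs in the B6C3F1 mice had medians of 0.326 within 5 kb of a gained and -0.388 within 5 kb of a lost DHS. Although 31 of the 37 lost DHSs had no called neighbour, the uncalled DHSs beside them were thus mostly lower in PB livers in both sets of mice. In the spans of the 23 clusters, 42 of 53 uncalled DHSs (79.2%) were above 0.

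**Figure D5:**
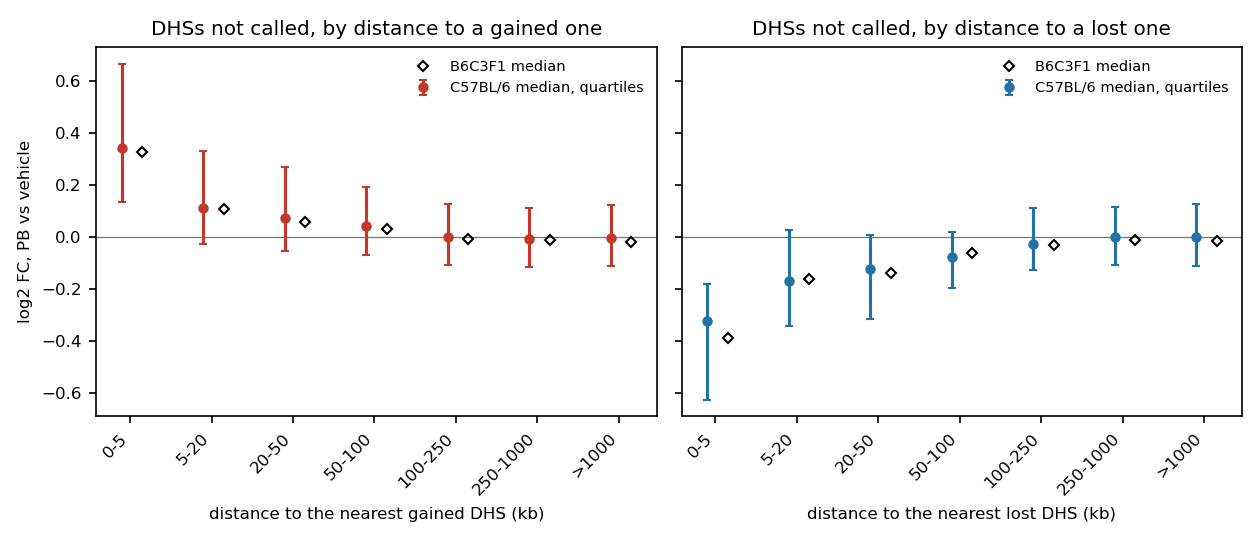
Median log2 FC (points, with quartiles) of DHSs that were not called, in bins of distance to the nearest gained (red) or lost (blue) DHS. Diamonds are the B6C3F1 medians of the same DHSs. The C57BL/6 medians go from 0.344 and -0.324 within 5 kb to near 0 beyond 100 kb.

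Changed DHSs were mostly far from promoters. Promoters held 14.1% of all DHSs, 5.88% of gained (19) and 5.41% of lost (2), and intergenic positions held 37.6%, 47.7% and 64.9%. Of the lost DHSs 27.0% were over 100 kb from any TSS, against 14.9% of gained and 11.4% of all. Motifs were sought on both strands of the 300 bases centred on every DHS, which include flanking bases where a DHS is narrower. DR4, the repeat shown above, was in 249 of all DHSs (0.254%), 16 gained (4.95%) and 0 lost DHSs. The single hexamer AGGTCA was in 28.1% of all, 37.8% of gained and 29.7% of lost DHSs. AP-1, searched as TGANTCA, was in 10.7% of all, 19.2% of gained (62) and 5.41% of lost DHSs (2), and the CTCF motif was in 3.54% of all, 0.310% of gained (1) and 0 lost DHSs. At a like starting level, 20 to 100 normalized counts in vehicle, DR4 was in 0.281% of all and 5.05% of gained DHSs, AP-1 in 11.3% and 20.2%, and CTCF in 5.30% and 0.505%. A match is a description of letters and not a bound site.

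DR4 matches were seldom in clusters, with 1 among the 107 clustered gained DHSs (0.935%), in Adamtsl1, and 13 among the 160 with no called neighbour (8.12%). The gained DHSs with a DR4 had log2 FC of 0.847 to 2.70. All 16 were above 0 in B6C3F1 and 9 were called there. Most DHSs with a DR4 were not called: 6.43% of the 249 were gained, the median log2 FC was 0.0518, and 61.0% were above 0. The intronic Tie1 DHS, in a gene for a receptor of endothelial cells and at the sequence shown above, had 61.1, 52.7, 67.5 and 34.2 in vehicle and 135, 177, 130, 138 and 135 in PB livers, and its groups did not overlap (log2 FC 1.43 ± 0.19, limma FDR 7.01e-05). The DR4 DHS of the Adamtsl1 cluster had 174, 204, 174 and 179 in vehicle and 300, 329, 349, 326 and 369 in PB livers (log2 FC 0.87 ± 0.11, limma FDR 6.69e-05). Clustered gained DHSs had a median log2 FC of 1.46 and those with no called neighbour 1.28, and in B6C3F1 the medians were 1.45 and 1.33, with 44 (41.1%) and 37 (23.1%) called.

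Among genes grouped by function, the shares furthest above the 0.329% of all DHSs that were gained were those of drug metabolism and transport genes. Of 277 DHSs nearest to phase I genes, which oxidize or hydrolyse drugs, 26 (9.39%) were gained and 1 was lost. That lost DHS, 1.35 kb downstream of the Cyp2c67 TSS, had 479, 521, 417 and 476 in vehicle and 330, 346, 316, 238 and 246 in PB livers (log2 FC -0.69 ± 0.12, limma FDR 0.00237), and Cyp2c67 RNA was 247 and 145 CPM (limma FDR 0.243). Conjugation genes had 8 gained of 232 (3.45%), and transporters had 5 of 123 (4.07%), all at Abcc4. Nuclear receptor genes had 1 of 421 (0.238%), at Ahr. At the background share a list of this size holds few gained DHSs if any, so the counts of 0 to 2 in this and the following lists are no result about them. DHSs of bile acid and lipid genes (253), circadian genes (187), pericentral genes (149), periportal genes (151) and hepatocyte markers (117) had 0 gained and 0 lost. Growth and stress genes had 2 of 162 gained, at Gadd45b and Trib3, which both respond to cell stress. Genes with female-biased expression had 2 of 202, at the sulfotransferase gene Sult3a1, and male-biased ones 1 of 191, at Gna14. Cholangiocyte (34), Kupffer cell (17), stellate cell (39), lymphocyte (16) and proliferation (36) markers had 0 called. The median log2 FC was -0.217 over the stellate and -0.194 over the Kupffer cell marker DHSs, the lowest of all lists, against 0.104 for phase I genes and -0.00189 for all DHSs. Endothelial markers had 1 gained (Tie1) and 1 lost of 139, the latter 14.3 kb upstream of Vwf, the gene of von Willebrand factor, at 312 to 385 in vehicle and 158 to 234 in PB livers (log2 FC -0.71 ± 0.13, limma FDR 0.00342).

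RNA of the nearest genes rose often beside gains and was not called beside losses. The 323 gained DHSs had 224 nearest genes, 127 of them measured in the RNA data, of which 34 (26.8%) were called up and 0 down, against 0.845% called up (117) and 0.0289% down (4) of the 13838 genes tested. The share grew with the number of gained DHSs, from 21.1% (20 of 95) with 1 to 31.6% (6 of 19) with 2 and 61.5% (8 of 13) with 3 or more. The 10 with the smallest FDR were Cyp2c66, Cyp2c29, Cyp2c53-ps, Cyp2b10, Cyp2c50, Gstm1, Cyp2c55, Sult3a1, Orm3 and Cyp2b13, of which all but the glutathione transferase, the sulfotransferase and the acute phase gene Orm3 are P450 genes. Gains also occurred without a change in nearest RNA that passed the test: at Micall2, with the largest gain, the RNA log2 FC was 0.19 (limma FDR 0.800), and it was 0.05 at Susd2 and 0.01 at Abt1. Seen from the RNA, 34 of the 117 genes called up (29.1%) were nearest to a gained DHS. The 37 lost DHSs had 34 nearest genes, of which 14 were measured, 3 had a log2 FC above 0 and 0 were called. Their median RNA log2 FC was -0.0897, against 0.187 for genes nearest gained DHSs and -0.00664 for all genes. The nearest gene need not be the target of a DHS.

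In the B6C3F1 mice, which share no animal with the C57BL/6 contrast, 315 of the 323 gained DHSs (97.5%) were above 0, against 47.4% of all DHSs, and 98 were called gained there, where 0.169% of all DHSs (166) were. Of the 37 lost DHSs 34 (91.9%) were below 0, against 52.6% of all, and 1 was called lost, where 0.0214% of all (21) were. The median B6C3F1 log2 FC was 1.35 at the gained and -0.801 at the lost DHSs. The PB effect differed between the strains at 0 of 98170 DHSs (0%) by a limma interaction term, with 5294 (5.39%) at an unadjusted p under 0.05. No other tool was run for that term. In it strain cannot be told apart from starting age, or from the suppliers of the animals and of the PB. Per the study's methods these suppliers differed between the strains. The B6C3F1 libraries were mostly shallower, at 7.01 to 25.7 M mapped reads inside the DHSs against 19.4 to 58.1 M in C57BL/6. Few calls in B6C3F1, or none for a difference between strains, therefore do not show that effects were absent or equal.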

How the data were processed

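DNase-seq was analysed in 9 C57BL/6 livers (4 vehicle, 5 PB), beside 9 B6C3F1 livers and the RNA-seq of both strains. Per the labels and the study's methods, the authors mapped DNase-seq reads with Bowtie2 to mm10, called peaks with MACS2, removed reads of low mapping quality and duplicates, merged peaks found in at least 3 samples into consensus DHSs and counted reads in them with DiffBind. The study describes the counts as adjusted for library size. The submitters' processing notes name Bowtie2 2.1.0, MACS2 2.1.1.20160309, DiffBind 1.16.3, edgeR 3.12.1, STAR 2.4.0f1 and cutadapt 1.8. The deposited DNase signal is a normalized count per DHS, in which each value, divided by the value of 1 read in its library, was whole within a tolerance of 1e-03. The deposited RNA values are CPM per gene, as the authors computed them.

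DHSs were tested with limma 3.58.1 in R 4.3.3, with its trend and robust options, on log2(normalized count + 1) over the 9 mice and without a low-value filter. The RNA fit took log2(CPM + 0.1) of the 4 groups together, for genes with at least 0.4 CPM in at least 3 samples of a group. Both used a log2 FC of 0.58 and an FDR of 0.01. Scripts were tested on simulated data. Fits that were tried instead, among them edgeR 4.0.16 and DESeq2 1.42.0 on the recovered reads, are described with the closing observations. The edgeR fit called 349 gained and 42 lost DHSs. TSSs are those of RefSeq for GRCm38.

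The DHSs named are the 10 largest changes per direction without overlap of the groups, those of the 10 clusters with most called DHSs, up to 4 per gene list, and the 5 widest and the 5 with the highest vehicle level per direction. Genes named are those nearest to them or inside those clusters, and the 10 nearest genes with the smallest RNA FDR. Clusters outside the first 10 and motif-bearing DHSs were named after their values were seen. The members, gene lists and motifs were chosen with earlier results of these data known. Intervals cover counting error only. One gene named by the study is not reported here.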

Additional observations from a re-analysis of the deposited data

Results flagged for a closer look

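A lone value far from the rest of its group, by Dixon's test at 95%, was found in 7 of the 214 groups of mice tested over the 107 named DHSs. Chance gives about 1 in 20 in unselected groups, whereas these DHSs were called on the same mice. Mice go by the final digit of the animal's number here (vehicle 1, 2, 3 and 5, PB 1 to 5). In PB mouse 5 the DHS chr13:23300013-23300272 near 4930557F10Rik had 315 normalized counts (the other PB mice 170 to 205). PB mouse 2 stood high at 208 at the intronic DHS chr14:118694403-118694824 of Abcc4 (others 127 to 145) and at 177 at the DR4 DHS chr4:118476772-118477123 of Tie1 (others 130 to 138). Vehicle mouse 2 had 204 at chr4:86066056-86066834 in Adamtsl1 (others 174 to 179) and 43.4 at chr7:25891833-25892442 near Cyp2b10 (others 70.1 to 72.5). Vehicle mouse 5 had 35.5 at chr7:25868340-25868544 near Cyp2b10 (others 10.7 to 14.4), and vehicle mouse 1 had 37.3 at chr9:59953982-59954330 near Gm7616 (others 47.7 to 49.1). All 7 DHSs kept separate PB and vehicle ranges, as did 322 of the 323 gained DHSs.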

How the results depend on the processing

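The 323 gained DHSs became 532 with DESeq2, 504 at an FDR of 0.05, 149 with all 4 groups in the fit and 274 with reads thinned to an equal depth, and 218 to 327 with a mouse left out. The 37 lost DHSs became 94 with DESeq2, 89 at an FDR of 0.05, 61 with sample quality weights, 23 with reads thinned to an equal depth, 11 at a log2 FC of at least 1 and 7 with all 4 groups, and 13 to 42 with a mouse left out (13 without vehicle mouse 1 or 2, 16 without vehicle mouse 5, named by the last digit of the animal number). The 23 clusters became 40 with DESeq2, 38 at an FDR of 0.05, 13 at a mean normalized count of at least 50 and 10 with all 4 groups, and 13 to 24 with a mouse left out (13 without PB mouse 2, 15 without PB mouse 5 or vehicle mouse 2), and in none of these settings was a lost DHS in a cluster. The median width of gained DHSs, 291 bp, became 339 at a mean of at least 50, 350 with all 4 groups, 282 at an FDR of 0.05, 275 at a log2 FC of at least 1 and 291 to 317 without a mouse. Their median vehicle level, 41.4, became 53.6 at a mean of at least 50, 33.5 at a log2 FC of at least 1, 14.0 per 100 bp and 41.2 to 44.9 without a mouse. Of the gained DHSs, 165 instead of 98 were called in B6C3F1 at an FDR of 0.05, a setting added after seeing the data. The share within 50 kb of a called DHS was 45.7 to 48.6%, and the genes up in RNA 30 to 34, without a mouse. The causes were not tested. Centring each mouse on its median gave 296 gained and 47 lost. Animals of both groups share the last digit of their number but are different mice, and the main fit did not pair them. Same-digit deviations correlated at -0.18, 0.244, -0.0666 and 0.07. So few values cannot decide whether same-digit mice shared a batch. With the digits as a replicate block, 352 DHSs were gained, 51 lost, 24 clusters formed and the vehicle level was 45.9. Of the 107 named DHSs, 68 to 107 kept their call and 0 reversed over the settings.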

Other observations

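Several gained DHSs with DR4 matches held many copies of the hexamer AGTTCA. It was counted in all DHSs after the DR4 sites had been seen. Near Lrrn3 and Gm5088 most matches lay on a run of a 5-base repeat, AGTTC. Neighbouring hexamers in such a run share a base, and the DR4 matches overlap. Copies that share a base were not counted separately, whereas overlapping DR4 matches were. Of 19 DHSs with 5 or more copies in the 300 bases centred on them, 7 (36.8%) were gained. The share was 0.272% with 0 copies, 0.424% with 1, 0.837% with 2 and 1.30% with 3 or 4. In C57BL/6, 14 of the 19 had a log2 FC above 0, with a median of 0.191. In B6C3F1, 18 of the 19 had a log2 FC above 0 and 5 were called, with a median of 0.989. The strongest, near Gm16497 (chr12:14209821-14210206), had 11.4, 20.6, 25.1 and 33.0 normalized counts in vehicle and 158, 147, 199, 102 and 122 in PB livers (log2 FC 2.70 ± 0.25, limma FDR 1.38e-06). The run near Lrrn3 (chr12:42228204-42228669), 742 kb from its TSS, had 45.5, 36.3, 54.8 and 56.2 in vehicle and 188, 264, 182, 214 and 240 in PB livers (log2 FC 2.16 ± 0.17, limma FDR 3.81e-08). In neither did the groups overlap, and both lie far from genes. Of 19 DHSs with 2 or more DR4 matches 6 (31.6%) were gained, against 4.35% (10 of 230) with 1 match. Simple repeats can draw reads from other copies, and the placement of reads in these runs was not tested.

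Of the 23 clusters, 10 had a gene with a called change in RNA within 100 kb. At those near Mir1983, Fzd10os, Mir145b, Grin3a and Mup19 no gene within 100 kb was measured in the RNA data. A call was therefore not possible there. The other clusters without a called gene had at least 1 measured gene within 100 kb, and 1 example is given here. Near Abt1, an activator of basal transcription, 4 of 5 DHSs of a cluster on chromosome 13 rose with log2 FC of 1.40 to 2.29, while Abt1 RNA was 10.1 CPM in vehicle and 10.1 CPM in PB livers (log2 FC 0.01, limma FDR 0.993). Of 7 genes within 100 kb of this cluster 2 were measured in the RNA data, so the RNA of the others could not be assessed.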
